A study of Mus musculus with 15 samples.

Results

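DNA replication and mitosis genes were followed in mouse bone marrow-derived macrophages (BMDMs), cells grown from bone marrow that can become bone-resorbing osteoclasts. The set held 48 genes, a fixed list of names chosen for their part in the cell cycle, of the 20089 complete gene entries of the table. All 48 passed the filter on low values, which left 11743 genes for testing. They were split by role into 14 replication genes, 21 mitosis genes, 6 G1 genes (the D- and E-type cyclins and *Cdk2*), 4 transcription factors and 3 inhibitors of cyclin-dependent kinases (CDKs).

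The cells came from wild-type C57BL/6 mice, whose age the labels do not give, and all 15 samples were in macrophage colony-stimulating factor (M-CSF), the growth factor on which macrophages depend to survive and divide. Control cells (3 samples) had M-CSF alone. The other groups of 3 samples each also had receptor activator of NF-κB ligand (RANKL), the cytokine that drives osteoclast formation, or lipopolysaccharide (LPS), a bacterial cell wall component that activates macrophages, for 4 h or 72 h. The labels give 3 days of M-CSF before stimulation. There was no group kept for 72 h in M-CSF alone, so at 72 h a stimulus and the added time in culture cannot be told apart. Nothing in the labels says whether the 3 samples of a group came from separate mice or cultures, and p-values measure only the spread between them. Levels are given as FPKM, the fragments of a gene scaled to its transcript length and to sequencing depth. A sample held 18306377 to 20330303 fragments on the listed genes.

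A dividing cell first licenses its DNA for copying and builds nucleotides and the replication machinery, under the control of the E2F transcription factors, and later makes the proteins that condense, attach and separate chromosomes. The genes for this second step are held down by the DREAM complex in resting cells and switched on by *Foxm1* and *Mybl2* (B-Myb) in dividing ones, through a promoter element called the CHR (cell cycle genes homology region), often with CCAAT boxes beside it. D-type cyclins pass on growth factor signals such as M-CSF, and the CDK inhibitors *Cdkn1a* (p21), *Cdkn1b* (p27) and *Cdkn2c* (p18) hold CDKs back. Osteoclast precursors are known to divide before they fuse, and mature osteoclasts do not divide.

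RefSeq promoter windows (250 bases before to 50 bases after the transcription start, build GRCm38.p6) were at hand for 36 of the 48 genes, and not for *Aurkb*, *Ccna2*, *Ccnd1*, *Ccnd2*, *Ccne2*, *Foxm1*, *Gins1*, *Gins2*, *Kif20a*, *Mcm4*, *Myc* and *Tpx2*. The windows were searched on both strands for the CHR (TTTGAA), for E2F sites (TTTCCCGC, TTTGGCGC, TTTCGCGC or TTTGCCGC) and for CCAAT. Matches of E2F sites on opposite strands can overlap each other. The 2 replication genes and 2 mitosis genes below were chosen after their matches were seen, to show both kinds of promoter. Each is printed from 250 bases before the start up to it, 5′ to 3′ on the strand of the gene, with E2F matches in capitals for *Mcm5* and *Mcm6* and CHR matches in capitals for *Mki67* and *Top2a*.
Mcm5 (chr8:75109259-75109508, plus strand): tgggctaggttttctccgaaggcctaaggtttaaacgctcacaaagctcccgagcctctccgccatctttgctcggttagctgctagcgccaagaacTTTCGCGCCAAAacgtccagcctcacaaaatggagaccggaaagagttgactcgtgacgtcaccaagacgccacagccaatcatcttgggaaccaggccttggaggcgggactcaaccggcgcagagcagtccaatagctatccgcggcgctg
Mcm6 (chr1:128359706-128359955, minus strand): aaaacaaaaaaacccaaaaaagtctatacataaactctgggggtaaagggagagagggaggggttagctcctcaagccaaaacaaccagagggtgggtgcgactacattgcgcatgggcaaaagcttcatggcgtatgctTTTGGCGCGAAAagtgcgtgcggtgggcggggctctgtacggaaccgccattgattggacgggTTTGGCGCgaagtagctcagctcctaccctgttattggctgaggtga
Mki67 (chr7:135716380-135716629, minus strand): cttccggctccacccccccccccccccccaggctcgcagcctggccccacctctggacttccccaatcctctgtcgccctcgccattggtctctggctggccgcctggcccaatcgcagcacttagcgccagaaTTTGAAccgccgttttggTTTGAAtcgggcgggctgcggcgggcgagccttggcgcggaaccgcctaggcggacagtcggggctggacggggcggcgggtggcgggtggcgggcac
Top2a (chr11:99024190-99024439, minus strand): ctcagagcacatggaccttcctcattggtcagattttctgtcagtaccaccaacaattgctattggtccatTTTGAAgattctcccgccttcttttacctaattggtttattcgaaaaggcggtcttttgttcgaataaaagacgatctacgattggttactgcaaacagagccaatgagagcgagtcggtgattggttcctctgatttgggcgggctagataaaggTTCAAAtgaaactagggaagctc

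The CHR letters were in the windows of 12 of 17 mitosis genes (70.6%) and of 2 of 11 replication genes (18.2%). The share was 20.2% of all 27018 genes with a window. E2F letters were in the windows of 6 of 11 replication genes (54.5%) and of 1 of 17 mitosis genes (5.88%), beside 2.61% of all genes. The mitosis gene that had them was *Cdk1*. CCAAT was found for 9 of 11 replication genes and 15 of 17 mitosis genes, beside 41.1% of all genes. All 12 mitosis genes with a CHR also had a CCAAT, so 70.6% of the 17 had both, beside 7.97% of all genes. Other mitosis genes of the pathway, listed by name apart from the 48, had the CHR in 25 of 35 cases (71.4%) and other replication genes in 5 of 30 (16.7%). E2F letters were in 8 of 30 other replication genes (26.7%) and in 4 of 35 other mitosis genes (11.4%), closer together than for the 48. A match of letters is a description of the window and not a binding site, and no match says only that these letters were not in this window.

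**Figure D1:**
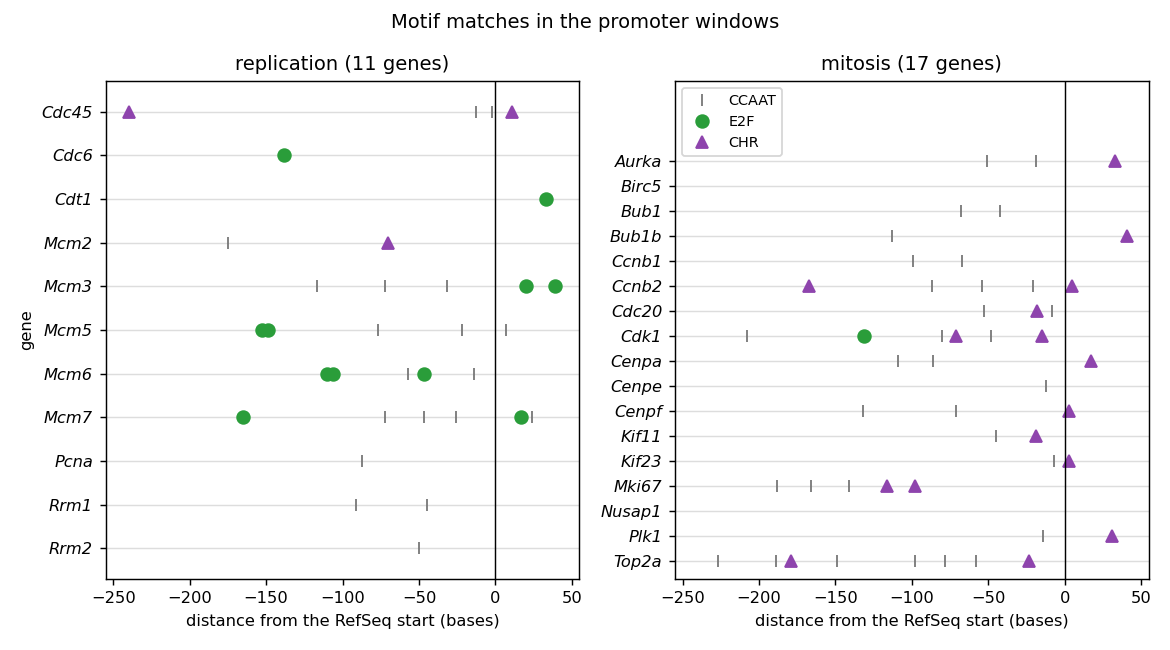
Positions of CHR, E2F and CCAAT matches in the promoter windows of 11 replication and 17 mitosis genes, with the distance from the RefSeq transcription start in bases on the horizontal axis and 1 line per gene, over all windows of that gene. E2F matches (circles) lie mainly among replication genes and CHR matches (triangles) among mitosis genes.

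A gene was called at a fold change above 1.5 or below 0.66 with an unadjusted p under 0.05, in 1 limma fit of log2(FPKM + 0.1) over the 5 groups, and the Benjamini-Hochberg adjusted p is given beside. Fold changes are on that scale, which understates the change of low genes. After RANKL for 4 h, 1 of the 48 genes was lower than control and 0 were higher, beside 1.35% and 1.21% of all tested genes, and none passed an adjusted p of 0.05. After RANKL for 72 h, 26 were higher and 4 were lower, beside 20.2% and 9.04% of all tested genes. Of the 26 and 4, 18 and 2 had an adjusted p under 0.05, beside 16.6% and 7.54%. In a fit of only these 2 groups, 33 were higher and 3 lower, beside 2318 and 1054 of 11743 tested genes. After LPS for 4 h, 32 were lower and 3 were higher, beside 41.0% and 8.75% of all tested genes, and 29 of the 32 passed with the adjusted p, beside 39.7%. Without LPS 4 h replicate 1, 1 gene in place of 3 was higher. After LPS for 72 h, 45 of the 48 were lower and 0 were higher, beside 16.1% and 14.9% of all tested genes, and 44 passed with the adjusted p, beside 14.4%. In bulk RNA, fewer dividing cells and less of these RNAs per cell cannot be told apart.

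**Figure D2:**
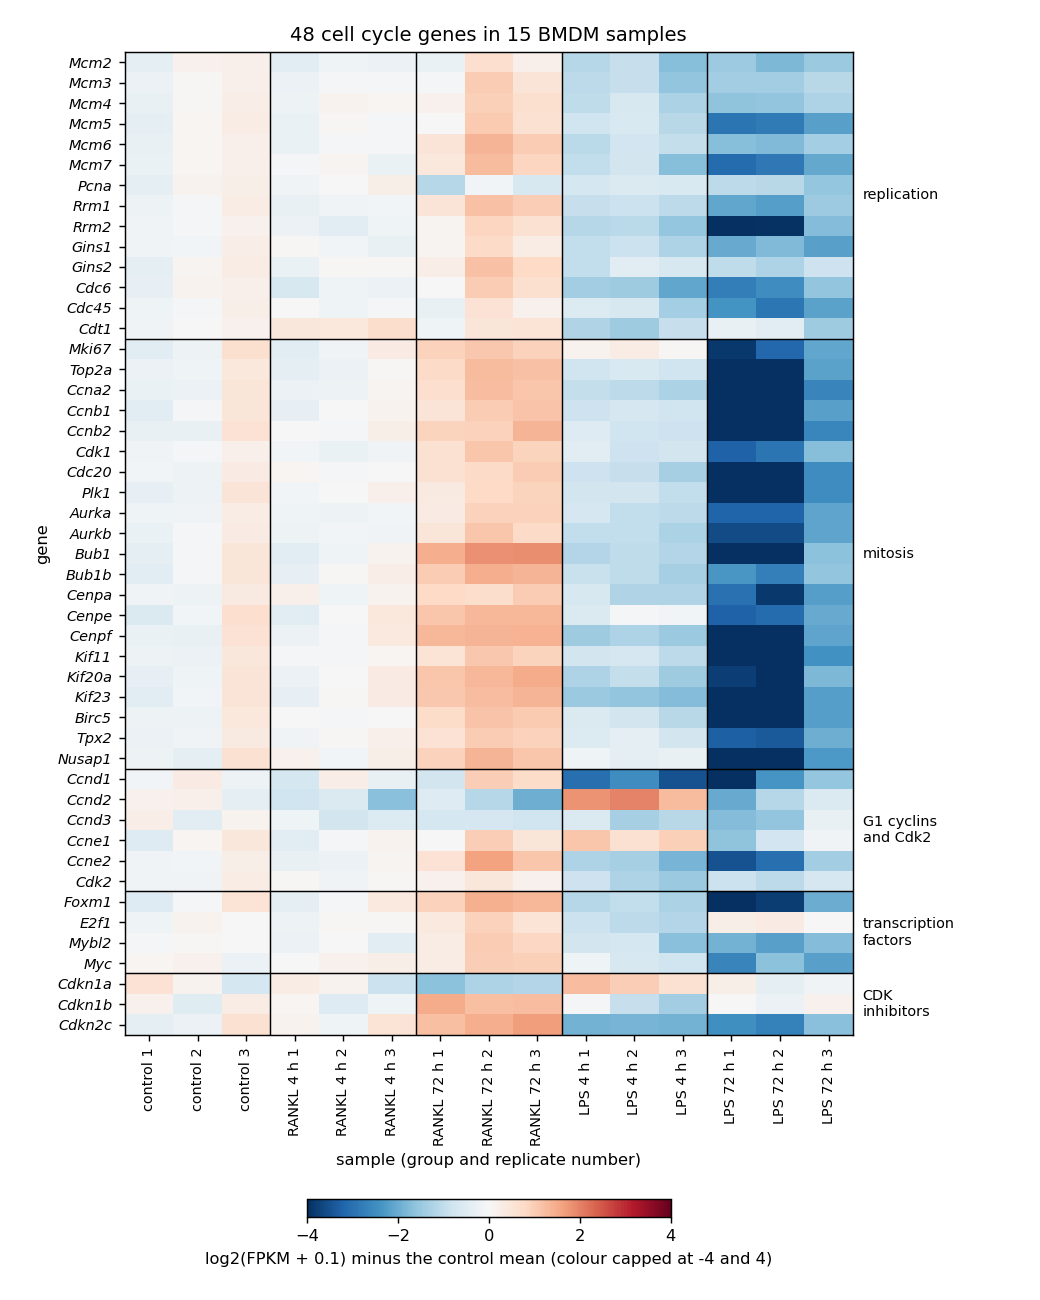
Level of the 48 genes (rows, grouped by role) in the 15 samples (columns), as log2(FPKM + 0.1) minus the control mean of the gene, with the color capped at -4 and 4. The RANKL 72 h columns are red for most replication and mitosis genes, the LPS 72 h columns are blue for nearly all, and replicate 3 of LPS 72 h is paler than the other two among mitosis genes.

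For the median gene, the squared difference between 2 samples of a group was 7.66 to 54.81 times that of sampling noise. The largest gap was that of LPS 72 h replicate 3 from the other two. That sample had the highest level of all 21 mitosis genes within its group. It also had a summed level of 10 macrophage markers of 17620 FPKM against 6109 and 7905 in replicates 1 and 2, of 10 granulocyte precursor markers of 1820 against 186.4 and 151.6, and of 18 stromal markers of 830.3 against 234.7 and 293.2. All 10 macrophage markers were above 0 in every group, but so were all 10 granulocyte precursor and all 18 stromal markers, so this does not tell cell types apart. In control replicates 1, 2 and 3 the macrophage markers summed to 9157, 9051 and 7508 FPKM and the granulocyte precursor markers to 24420, 7968 and 21380. Of 10 osteoclast markers 9 rose in RANKL 72 h, and all 10 LPS response markers rose in LPS 4 h. The part of cells other than macrophages in the results was not tested.

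Of the 14 replication genes, all were called lower after LPS at both times, beside 41.0% of all tested genes at 4 h and 16.1% at 72 h. After RANKL for 72 h 5 were called higher, 1 lower and 8 neither, beside 20.2% and 9.04% of all tested genes, and the 5 were 3 without control replicate 1 and 2 without RANKL 72 h replicate 2. Relative to the median gene of each sample, *Mcm6* and *Rrm1* were the 2 called higher, beside 12.7% of all tested genes. On that scale only *Mcm2*, *Mcm3*, *Cdc6* and *Cdt1* were called lower in LPS 4 h, beside 14.3% of all tested genes. All 14 were still called lower in LPS 72 h, beside 2126 of 11743 tested genes. The geometric mean of the 14 genes was 17.1, 21.1 and 24.1 FPKM in control, 18.1, 20.03 and 19.95 in RANKL 4 h and 20.7, 37.8 and 29.5 in RANKL 72 h. It was 10.3, 11.4 and 8.48 FPKM in LPS 4 h and 4.84, 4.97 and 6.77 in LPS 72 h. RANKL 72 h overlapped with control, through its replicate 1, whereas each LPS sample was below each control sample. The median log2 change of the 14 genes was 0.54 in RANKL 72 h, -1.0 in LPS 4 h and -1.76 in LPS 72 h, beside medians over all tested genes of 0.16, -0.52 and 0.08.

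*Mcm2* to *Mcm7* encode the 6 subunits of the helicase that unwinds DNA at the fork. *Mcm5* was at 21.2, 29.6 and 34.3 FPKM in control, 27.4, 58 and 42.3 in RANKL 72 h and 3.55, 3.87 and 6.08 in LPS 72 h. At 4 h it was at 23, 28.7 and 26.1 FPKM with RANKL and 16.1, 18.3 and 12.9 with LPS. Every LPS sample lay below control and the RANKL 72 h samples overlapped with control, and *Mcm5* fell by 2.64 ± 0.27 (SE) on the log2 scale in LPS 72 h, 6.24-fold (limma, adjusted p = 1.60e-05). *Mcm6* was at 22.4, 28.8 and 31.4 FPKM in control, 39.1, 70.1 and 55.6 in RANKL 72 h and 8.29, 8.0 and 10.5 in LPS 72 h. At 4 h its levels were 22.9, 25.9 and 25.8 FPKM with RANKL and 12.8, 16 and 14.1 with LPS. All 3 RANKL 72 h samples were above control, and *Mcm6* had the largest rise among the 14 genes in RANKL 72 h, 1.96-fold (limma, adjusted p = 0.00241). *Mcm4* and *Mcm7* also rose, by 1.51-fold and 1.79-fold. *Mcm2*, *Mcm3* and *Mcm5* were not called in RANKL 72 h, with log2 changes of 0.20, 0.49 and 0.55 and 95% intervals of -0.32 to 0.72, -0.00 to 0.99 and -0.03 to 1.12. In LPS 72 h the 6 subunits fell unequally, *Mcm5* and *Mcm7* by 6.24-fold and 6.33-fold and *Mcm2*, *Mcm3*, *Mcm4* and *Mcm6* by 2.45-fold to 3.05-fold.

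Ribonucleotide reductase makes the building blocks of DNA. Its large subunit is encoded by *Rrm1* and its small one, whose supply is tied to S phase, by *Rrm2*. *Rrm2* was at 25.5, 26.8 and 31.7 FPKM in control, 29.99, 50.6 and 42.8 in RANKL 72 h and 0.689, 1.72 and 8.38 in LPS 72 h. After 4 h it was at 23.7, 20.6 and 24.8 FPKM with RANKL and 12.7, 13.2 and 9.43 with LPS. The LPS 72 h samples spread widely, with replicate 3 the highest, and all 3 were below the lowest LPS 4 h sample. *Rrm2* had the largest fall of the replication genes in LPS 72 h, 12.2-fold, whereas *Rrm1* fell 3.77-fold. The fall of *Rrm2* was 23.4-fold without LPS 72 h replicate 3 and 7.13-fold without replicate 1. In RANKL 72 h *Rrm1* rose 1.86-fold (limma, adjusted p = 0.0053) and *Rrm2* was not called, at 0.53 on the log2 scale with an interval of -0.70 to 1.75.

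*Pcna*, the sliding clamp that holds polymerases on DNA and also serves in repair, had the highest level of the 14 genes and was the only one of them called lower in RANKL 72 h. It was at 234, 328 and 351 FPKM in control, 135, 278 and 194 in RANKL 72 h and 146, 138 and 103 in LPS 72 h. At 4 h the levels were 269.8, 302 and 354 FPKM with RANKL and 185, 199 and 198 with LPS. The lowest RANKL 72 h sample was replicate 1, replicate 2 lay among the control samples, and *Pcna* fell by 0.63 ± 0.23 on the log2 scale, which did not pass the adjusted threshold (limma, adjusted p = 0.0528). It was no longer called without control replicate 2 or 3 or without RANKL 72 h replicate 1.

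*Cdc6* and *Cdt1* load the helicase onto origins in G1, and *Cdc45*, *Gins1* and *Gins2* activate it. *Cdt1* was at 21.4, 23.4 and 27 FPKM in control, 21, 33.4 and 34.7 in RANKL 72 h and 19.2, 17.3 and 8.82 in LPS 72 h, and at 32.7, 32.1 and 39.3 in RANKL 4 h and 10.3, 8.74 and 12.5 in LPS 4 h. All RANKL 4 h samples were above control, though *Cdt1* was not called there. In LPS its lowest group mean was that at 4 h, not at 72 h. *Cdc6* fell 3.12-fold in LPS 4 h and 4.86-fold in LPS 72 h, and *Cdc45* fell 1.81-fold and 5.57-fold. *Gins1* fell 3.95-fold and *Gins2* 2.03-fold in LPS 72 h, and of these 5 genes *Gins2* alone was called in RANKL 72 h, 1.67-fold higher.

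Mitosis genes were higher after 72 h of RANKL and lower after 72 h of LPS, with larger median changes than the replication genes in both. Their geometric mean was 10.2, 11.1 and 17.3 FPKM in control and 21.9, 27.7 and 27.7 in RANKL 72 h. In LPS 72 h it was 0.603, 0.703 and 2.75 FPKM. At 4 h it was 11.1, 11.8 and 13.9 FPKM with RANKL and 7.32, 7.23 and 6.28 with LPS, so both 72 h groups lay outside the control range and RANKL 4 h lay inside it. All 21 genes were called lower in LPS 72 h, beside 16.1% of all tested genes. Their median log2 change was -3.51, with a range of -4.41 to -2.21. In all 21 each LPS 72 h sample was below each control sample, beside 21.0% of all tested genes. In RANKL 72 h 14 of 21 were called higher and none lower, beside 20.2% and 9.04% of all tested genes. Of the 14, 8 had an adjusted p under 0.05, beside 16.6% of all tested genes. The median log2 change was 0.98, with a range of 0.69 to 1.71. Relative to the median gene of each sample, only *Bub1*, *Bub1b*, *Cenpe*, *Cenpf*, *Kif20a* and *Kif23* were called higher, beside 12.7% of all tested genes. The 3 RANKL 72 h samples were all above control for 20 of the 21, beside 33.1% of all tested genes, and overlapped for *Plk1*. The mean of each of the 21 genes was highest in RANKL 72 h and lowest in LPS 72 h among the 5 groups. Without LPS 72 h replicate 3, all 21 were still called lower, with a median of -4.27. In RANKL 72 h the count of 14 fell to 7 without control replicate 1 and to 8 without control replicate 2.

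**Figure D3:**
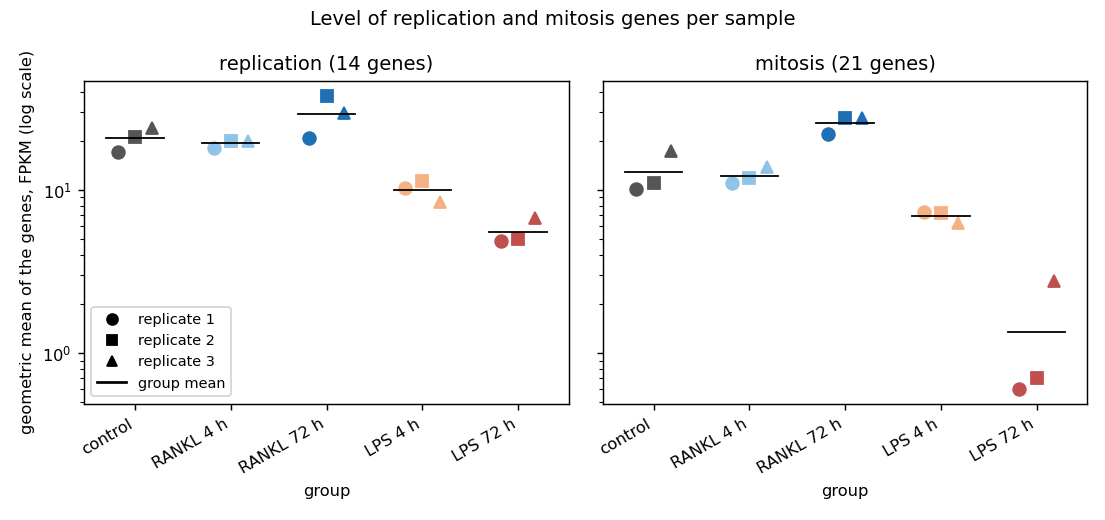
Geometric mean FPKM (log scale) of the 14 replication genes (left) and the 21 mitosis genes (right) in each sample, with circles, squares and triangles for replicates 1, 2 and 3 and a line at the mean of the group. The drop in LPS 72 h is deeper for mitosis genes, where the samples sit at 0.603, 0.703 and 2.75 FPKM against 10.2 to 17.3 in control.

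*Mki67* (chromosome 7, 135689784 to 135716361, minus strand, GRCm38), the source of the Ki-67 stain for dividing cells, coats mitotic chromosomes. It was at 14.6, 17.1 and 31.1 FPKM in control, 37.8, 41.7 and 37.8 in RANKL 72 h and 1.27, 2.16 and 4.58 in LPS 72 h. At 4 h it was at 14.7, 18 and 24.9 FPKM with RANKL and 21.8, 24.3 and 20.6 with LPS. All RANKL 72 h samples were above control and all LPS 72 h samples below, whereas LPS 4 h overlapped with control and was not called (0.16 on the log2 scale, interval -0.62 to 0.94). *Mki67* rose 1.97-fold in RANKL 72 h (limma, adjusted p = 0.0554) and fell 8.17-fold in LPS 72 h (adjusted p = 4.63e-05).

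*Top2a*, the topoisomerase that untangles sister chromosomes, had the highest mean level of the mitosis genes. It was at 28.9, 30.4 and 45.5 FPKM in control, 58.7, 82.6 and 77.8 in RANKL 72 h and 1.21, 1.33 and 7.73 in LPS 72 h. After 4 h its levels were 26.2, 29.4 and 35.3 FPKM with RANKL and 19.6, 22.4 and 19.5 with LPS. The 3 groups at control and 72 h did not overlap, and LPS 72 h replicate 3 was well above the other two. *Top2a* rose 2.11-fold with RANKL (limma, adjusted p = 0.106) and fell 14-fold with LPS at 72 h (adjusted p = 7.70e-05). Without LPS 72 h replicate 3 the fall of *Top2a* was 25.1-fold. The rises of *Top2a* and *Mki67* were both lost as calls without control replicate 1 or control replicate 2, and that of *Top2a* also without RANKL 72 h replicate 2 or 3.

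*Cdk1* is the kinase that starts mitosis, with the cyclins *Ccna2*, *Ccnb1* and *Ccnb2* as its partners. *Cdk1* was at 16.6, 17 and 21 FPKM in control, 27.6, 39 and 33.4 in RANKL 72 h and 1.84, 2.31 and 5.48 in LPS 72 h, and at 16.9, 15.2 and 16.4 with RANKL and 13.1, 10.2 and 10.9 with LPS at 4 h. *Ccnb1* was at 13.5, 18 and 25.8 FPKM in control, 26.1, 37.6 and 40.7 in RANKL 72 h and 0.243, 0.587 and 4.0 in LPS 72 h, and at 14.5, 18.8 and 20.2 with RANKL and 10.4, 11.6 and 10.6 with LPS at 4 h. *Ccna2* was at 17.9, 18.4 and 29.8 FPKM in control, 34.1, 50.5 and 46.1 in RANKL 72 h and 0.461, 0.433 and 3.37 in LPS 72 h, and at 18.1, 18.5 and 23.3 with RANKL and 10.9, 10.2 and 8.8 with LPS at 4 h. For all 3 genes the RANKL 72 h samples lay above and the LPS samples of both times below the control samples. *Ccna2* had the largest fall of the 48 genes, 21.2-fold in LPS 72 h, and *Ccnb1* and *Ccnb2* fell 18.7-fold and 14.8-fold, whereas the kinase *Cdk1* fell 6.14-fold. Without LPS 72 h replicate 3 the falls of *Ccna2*, *Ccnb1* and *Ccnb2* were 39.3-fold, 38.1-fold and 23-fold, and that of *Ccnb1* was 11-fold without replicate 1. In RANKL 72 h *Cdk1* and *Ccnb2* were called, 1.82-fold and 2.07-fold higher. *Ccna2* and *Ccnb1* were not, with log2 intervals of -0.11 to 2.12 and -0.43 to 2.21. The spread behind these intervals also takes in LPS 72 h, where replicate 3 stood apart.

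The spindle checkpoint kinases *Bub1* and *Bub1b*, which delay chromosome separation until every chromosome is attached, both rose in RANKL 72 h and fell in LPS 72 h. *Bub1* was at 4.04, 5.06 and 7.55 FPKM in control, 14.9, 19.2 and 19.6 in RANKL 72 h and 0.119, 0.235 and 1.66 in LPS 72 h, and at 3.94, 4.76 and 5.89 with RANKL and 2.35, 2.61 and 2.31 with LPS at 4 h. *Bub1b* was at 8.38, 11.2 and 16.2 FPKM in control, 23.5, 31.6 and 29.7 in RANKL 72 h and 2.19, 1.66 and 3.8 in LPS 72 h, and at 9.2, 11.9 and 13.7 with RANKL and 6.16, 5.66 and 4.48 with LPS at 4 h. Neither gene overlapped with control at 72 h. *Bub1* had the largest rise of the 48 genes in RANKL 72 h, 3.27-fold (limma, adjusted p = 0.0281), and *Bub1b* rose 2.42-fold (adjusted p = 0.0045). *Bub1b* also had the smallest fall of the mitosis genes in LPS 72 h, 4.63-fold, against 10.8-fold for *Bub1*, which was 20.2-fold without LPS 72 h replicate 3 and 7.12-fold without replicate 1.

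The mitotic kinase *Plk1* had the smallest change of the mitosis genes in RANKL 72 h. It was at 13.9, 15.2 and 24.7 FPKM in control, 22.1, 30.4 and 32.4 in RANKL 72 h and 0.700, 0.746 and 3.01 in LPS 72 h, and at 16, 17.1 and 19.9 with RANKL and 10.4, 10.4 and 8.73 with LPS at 4 h. Control replicate 3 lay above the lowest RANKL 72 h sample, and the change of 0.69 ± 0.40 on the log2 scale was not called. The Aurora kinases *Aurka* (spindle poles) and *Aurkb* (with *Birc5*, survivin, in the chromosomal passenger complex) rose 1.64-fold and 1.73-fold with RANKL and fell 7.09-fold and 8.52-fold with LPS at 72 h. *Birc5* fell 13.8-fold with LPS and was not called with RANKL. *Cdc20*, which starts the anaphase-promoting complex, fell 15-fold with LPS and was not called with RANKL either. Without LPS 72 h replicate 3 the falls of *Birc5* and *Cdc20* were 23.9-fold and 24.5-fold.

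Among kinetochore and spindle genes, the centromere proteins *Cenpa*, *Cenpe* and *Cenpf* rose 1.78-fold to 2.56-fold in RANKL 72 h and fell 6.85-fold to 11.4-fold in LPS 72 h. *Cenpf* had the fewest fragments, 7, 13 and 116 in the LPS 72 h samples. The kinesins *Kif20a* and *Kif23*, motors of cell division's last step, rose 2.47-fold and 2.33-fold with RANKL, and *Kif11*, which pushes the spindle poles apart, was not called (interval -0.14 to 1.82). In LPS 72 h *Kif11*, *Kif20a* and *Kif23* fell 15.1-fold, 9.1-fold and 12-fold. The spindle assembly genes *Tpx2* and *Nusap1* fell 7.25-fold and 17.1-fold in LPS 72 h. *Tpx2* rose 1.8-fold in RANKL 72 h and *Nusap1* was not called there, at 1.13 on the log2 scale. Without LPS 72 h replicate 3 the falls were 18.4-fold for *Cenpf*, 25.3-fold, 14.7-fold and 19.3-fold for *Kif11*, *Kif20a* and *Kif23*, and 31.9-fold for *Nusap1*.

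The ratio of the mitosis to the replication level within a sample takes out any change that both share. It was 0.597, 0.526 and 0.716 in control and 1.06, 0.734 and 0.939 in RANKL 72 h. It was 0.610, 0.588 and 0.696 in RANKL 4 h and 0.714, 0.636 and 0.741 in LPS 4 h. In LPS 72 h it was 0.125, 0.141 and 0.407. RANKL 72 h was thus above control and LPS 72 h below it without overlap, and the ratio of the other mitosis to the other replication genes of the pathway was also above control in each RANKL 72 h sample (1.1 to 1.29 against 0.816 to 1.08) and below it in each LPS 72 h sample (0.201 to 0.475). The smallest two-sided p of an exact permutation test of 3 samples against 3 is 0.1, so no such test of a single ratio could pass 0.05.

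**Figure D4:**
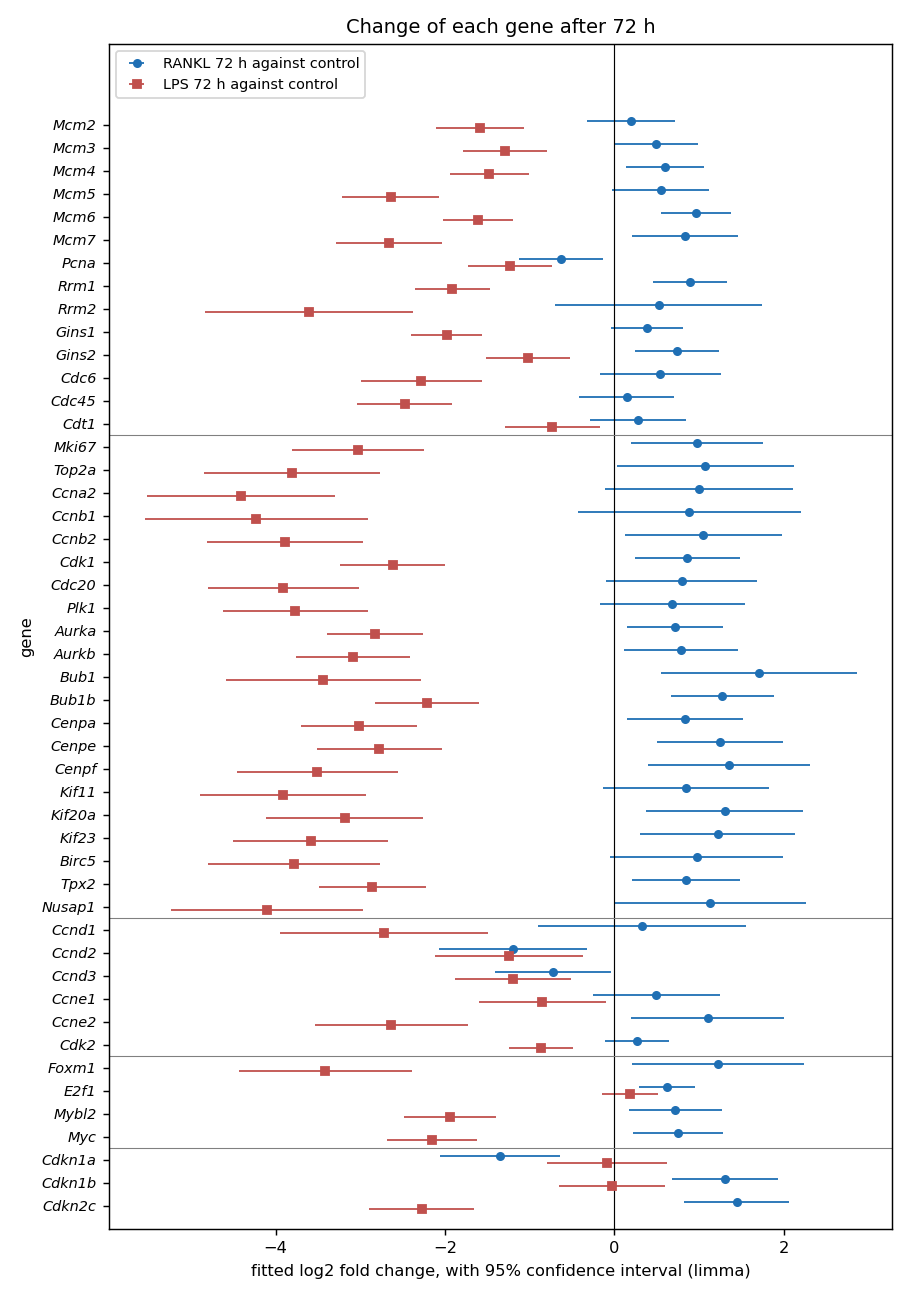
Fitted log2 fold change of each of the 48 genes after 72 h of RANKL (circles) or LPS (squares) against control, with 95% confidence intervals from limma; horizontal lines separate the roles. Mitosis genes sit between 0.69 and 1.71 for RANKL and between -4.41 and -2.21 for LPS, and *Cdkn1a*, *Cdkn1b* and *E2f1* are the 3 genes not called in LPS 72 h.

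After 4 h of LPS the median gene itself was 0.52 lower than control on the log2 scale, whereas the shift was 0.16 in RANKL 72 h, 0.08 in LPS 72 h and 0.00 in RANKL 4 h. All 14 replication genes and 9 of 21 mitosis genes were called lower in LPS 4 h, beside 41.0% of all tested genes. The share of the mitosis genes was thus near that of all tested genes. Of the 48 genes, 40 were below control without overlap, beside 56.2% of all tested genes. Relative to the median gene of each sample, 8 of the 48 genes were lower, beside 14.3% of all tested genes, namely *Mcm2*, *Mcm3*, *Cdc6*, *Cdt1*, *Kif23*, *Ccnd1*, *Cdk2* and *Cdkn2c*, a share near that background. On that scale the median change of the replication genes was -0.44 and that of the mitosis genes -0.25. For RANKL 72 h the same centring left 10 genes higher, beside 12.7% of all tested genes, with median changes of 0.32 for replication and 0.76 for mitosis genes. For LPS 72 h it left medians of -1.84 and -3.59.

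The G1 cyclins did not move as a block. *Ccnd1*, the D-type cyclin of highest level in control, was at 62.2, 84.2 and 59.3 FPKM there, 41, 134 and 112 in RANKL 72 h and 3.49, 13 and 23.3 in LPS 72 h. At 4 h it was at 42, 81.7 and 54.7 FPKM with RANKL and 8.34, 12.1 and 5.97 with LPS. Every LPS sample lay below every control sample, while RANKL 72 h spread from below to above the control range. *Ccnd1* fell 7.93-fold within 4 h of LPS (limma, adjusted p = 5.50e-04), the largest fall of the 48 genes at that time, and 6.57-fold at 72 h (adjusted p = 0.00256). The fall at 72 h was 9.89-fold without LPS 72 h replicate 3 and 3.88-fold without replicate 1.

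*Ccnd2* (chromosome 6, 127125162 to 127152193, minus strand, GRCm38) took the opposite course at 4 h. It was at 15.1, 15.4 and 10.5 FPKM in control and 47.4, 53 and 32.6 in LPS 4 h, each of the latter more than 2-fold above the highest control sample. It was at 7.74, 8.9 and 4.11 FPKM in RANKL 4 h, 9.43, 6.1 and 3.38 in RANKL 72 h and 3.25, 6.11 and 8.99 in LPS 72 h, and in these 3 groups all samples were below all control samples. *Ccnd2* rose 3.21-fold in LPS 4 h (limma, adjusted p = 0.00289) and fell 2.3-fold and 2.36-fold in RANKL and LPS 72 h (adjusted p = 0.0384 and 0.0293). It was also the gene called lower in RANKL 4 h, at -1.02 ± 0.41 on the log2 scale (adjusted p = 0.822), a call that was lost without control replicate 1, control replicate 2 or RANKL 4 h replicate 3.

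*Ccnd3* was at 67.5, 42.2 and 62.1 FPKM in control, 34.4, 35.1 and 32.2 in RANKL 72 h and 16.8, 18.8 and 46 in LPS 72 h, with 50.1, 33.5 and 38 in RANKL 4 h and 37.7, 22.4 and 25.8 in LPS 4 h. RANKL 72 h was below control in all samples, and LPS 72 h overlapped through its replicate 3. It fell 1.65-fold in RANKL 72 h (limma, adjusted p = 0.0991), 2.01-fold in LPS 4 h and 2.29-fold in LPS 72 h (adjusted p = 0.015 and 0.0106). Relative to the median gene of each sample, the change of *Ccnd3* in LPS 4 h was not called, at -0.44 on the log2 scale. The call of *Ccnd3* in RANKL 72 h was lost without any one of the samples compared except control replicate 2, and that of *Ccnd2* without RANKL 72 h replicate 3. *Ccnd1* was not called in RANKL 72 h, with an interval of -0.90 to 1.56.

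The E-type cyclins drive entry into S phase with *Cdk2*. *Ccne1* was at 4.5, 6.86 and 8.89 FPKM in control, 6.59, 13 and 9.17 in RANKL 72 h and 2.04, 3.75 and 5.84 in LPS 72 h, with 4.88, 6.27 and 7.2 in RANKL 4 h and 14.3, 9.96 and 12.6 in LPS 4 h. *Ccne2* was at 3.63, 3.78 and 4.83 FPKM in control, 6.15, 12.6 and 8.78 in RANKL 72 h and 0.274, 0.410 and 1.47 in LPS 72 h, with 3.25, 3.43 and 4.34 in RANKL 4 h and 1.68, 1.56 and 1.04 in LPS 4 h. The pair parted in LPS 4 h, where each sample of *Ccne1* was above control and each of *Ccne2* below. *Ccne1* rose 1.85-fold there (limma, adjusted p = 0.0402) and *Ccne2* fell 2.77-fold (adjusted p = 0.00817). The call of *Ccne1* was lost without control replicate 1 or LPS 4 h replicate 1 or 3. Relative to the median gene of each sample, *Ccne1* was still called in LPS 4 h, at 1.46 on the log2 scale. *Ccne2* was not, at -0.90. In RANKL 72 h *Ccne2* rose 2.15-fold (adjusted p = 0.0609). In LPS 72 h *Ccne2* fell 6.2-fold (9.51-fold without replicate 3), *Ccne1* 1.8-fold with an adjusted p of 0.072, and *Cdk2* 1.82-fold.

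**Figure D5:**
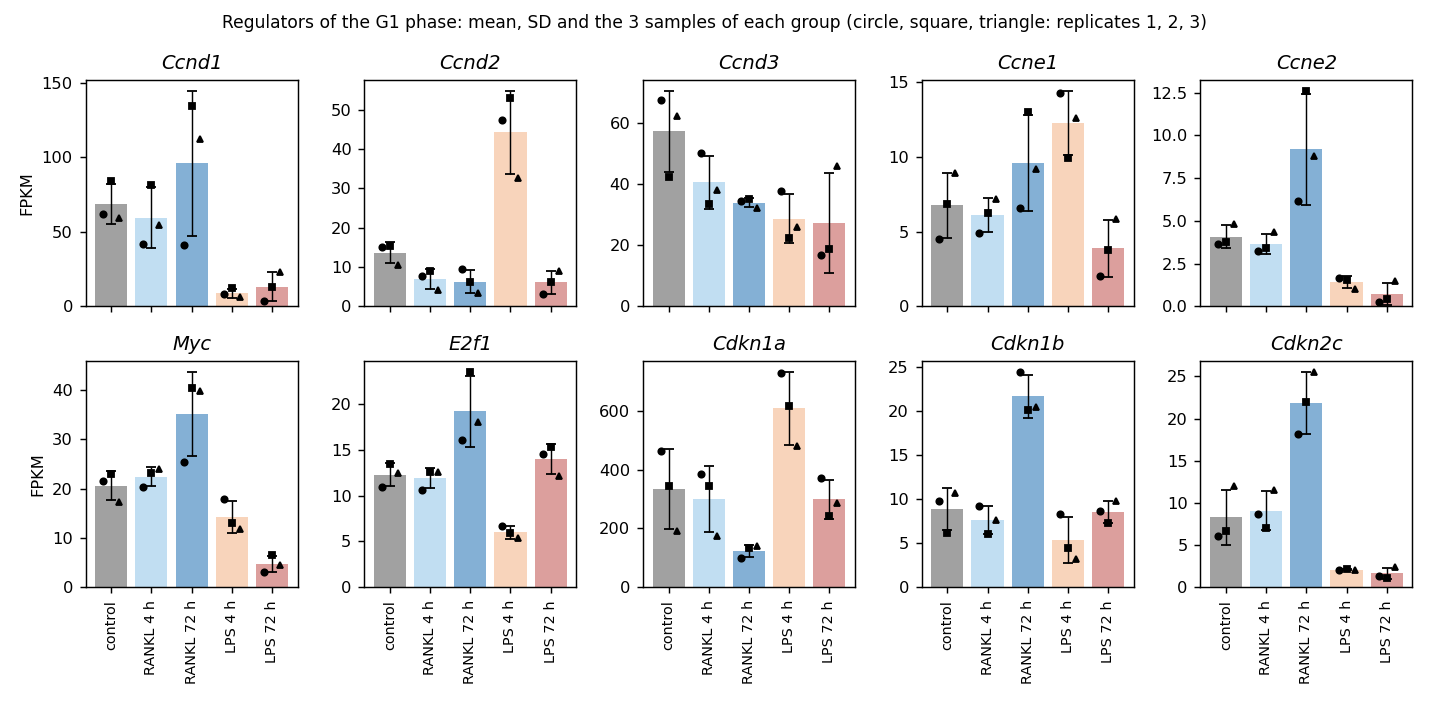
FPKM of 10 regulators of G1 in the 5 groups, with bars at the mean of 3 samples, error bars of 1 SD and circles, squares and triangles for replicates 1, 2 and 3; each panel has its own axis from 0. *Ccnd2*, *Ccne1* and *Cdkn1a* are highest in LPS 4 h, and *Cdkn1b* and *Cdkn2c* in RANKL 72 h.

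All 4 transcription factors were called higher in RANKL 72 h, beside 20.2% of all tested genes. None was called relative to the median gene of each sample, with *Foxm1*, *Myc* and *Mybl2* at 1.01, 0.53 and 0.50 on the log2 scale. *Myc*, which drives growth genes downstream of growth factors, was at 21.5, 23 and 17.2 FPKM in control, 25.3, 40.3 and 39.8 in RANKL 72 h and 3.19, 6.54 and 4.42 in LPS 72 h. It was at 20.2, 23.1 and 23.9 FPKM in RANKL 4 h and 18, 13.1 and 11.8 in LPS 4 h. Neither 72 h group overlapped with control, and *Myc* rose 1.68-fold with RANKL and fell 4.44-fold with LPS (limma, adjusted p = 0.0345 and 3.63e-05). *Foxm1*, the activator of mitosis genes, was at 4.67, 6.44 and 9.85 FPKM in control, 12.8, 18.2 and 16.8 in RANKL 72 h and 0.204, 0.389 and 1.63 in LPS 72 h, with 5.04, 6.32 and 8.8 with RANKL and 2.99, 3.32 and 2.69 with LPS at 4 h. It rose 2.34-fold (limma, adjusted p = 0.0647) and fell 10.6-fold (adjusted p = 1.38e-04), the widest span of the 4 factors. The fall was 17.5-fold without LPS 72 h replicate 3, and the rise was lost as a call without control replicate 1 or RANKL 72 h replicate 2 or 3. *Mybl2* rose 1.65-fold with RANKL and fell 3.83-fold with LPS at 72 h.

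*E2f1*, an activator of replication genes, stood apart from the other three in LPS 72 h. It was at 11, 13.4 and 12.5 FPKM in control, 16.1, 23.6 and 18 in RANKL 72 h and 14.5, 15.3 and 12.2 in LPS 72 h. At 4 h it was at 10.7, 12.5 and 12.6 FPKM with RANKL and 6.73, 5.91 and 5.37 with LPS. LPS 72 h overlapped with control, and the log2 change of 0.19 was not called, with an interval of -0.15 to 0.52 that leaves out the falls of the replication genes, the smallest of which was -0.73 for *Cdt1*. In LPS 4 h each sample was below control and *E2f1* fell 2.03-fold (limma, adjusted p = 8.57e-05), so it was higher at 72 h than at 4 h of LPS by 2.31-fold (adjusted p = 1.38e-05). In RANKL 72 h it rose 1.54-fold. Relative to the median gene of each sample none of these 3 changes of *E2f1* was called, at -0.46 on the log2 scale in LPS 4 h, 0.56 between 4 h and 72 h of LPS and 0.41 in RANKL 72 h.

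Of the 3 CDK inhibitors, 2 were called higher in RANKL 72 h, alongside the mitosis genes, and 1 lower, beside 20.2% and 9.04% of all tested genes. The lower one, *Cdkn1a*, had the highest mean level of the 3. *Cdkn1b*, which is linked to exit from the cycle, was at 9.76, 6.22 and 10.7 FPKM in control, 24.5, 20.1 and 20.5 in RANKL 72 h and 8.67, 7.29 and 9.79 in LPS 72 h, with 9.19, 6.03 and 7.62 with RANKL and 8.29, 4.5 and 3.23 with LPS at 4 h. *Cdkn2c*, an inhibitor of the kinases of D-type cyclins, was at 6.14, 6.7 and 12 FPKM in control, 18.2, 21.9 and 25.6 in RANKL 72 h and 1.38, 1.12 and 2.42 in LPS 72 h, with 8.73, 6.97 and 11.6 with RANKL and 2.08, 2.13 and 2.07 with LPS at 4 h. For both, all RANKL 72 h samples were above every other sample of the study. *Cdkn1b* rose 2.48-fold and *Cdkn2c* 2.72-fold in RANKL 72 h (limma, adjusted p = 0.0045 and 0.00241). In LPS 72 h *Cdkn2c* fell 4.83-fold, and *Cdkn1b* was not called, with an interval of -0.65 to 0.60.

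*Cdkn1a* (chromosome 17, 29090976 to 29100727, plus strand, GRCm38), the inhibitor induced by stress and p53, had the reverse order. It was at 463, 344 and 193 FPKM in control, 100.2, 133 and 139 in RANKL 72 h and 370.3, 242 and 285 in LPS 72 h. At 4 h it was at 385, 346 and 173 FPKM with RANKL and 730.0, 616 and 481 with LPS. The RANKL 72 h samples lay below and the LPS 4 h samples above the control range, and control and LPS 72 h overlapped. *Cdkn1a* fell 2.55-fold in RANKL 72 h (limma, adjusted p = 0.00793), rose 1.92-fold in LPS 4 h (adjusted p = 0.0248) and was not called in LPS 72 h (interval -0.80 to 0.62). Control samples ran from 193 to 463 FPKM. The summed LPS response markers, 1112, 496 and 225.5 FPKM in control replicates 1, 2 and 3, had the same order. The orders also matched in RANKL 4 h but not in RANKL 72 h, LPS 4 h or LPS 72 h, and a link was not tested. The call of *Cdkn1a* in LPS 4 h was lost without control replicate 3 or LPS 4 h replicate 1.

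RANKL and LPS were compared directly at each time. At 72 h 44 of the 48 genes were higher with RANKL and 1 was lower, beside 25.1% and 13.8% of all tested genes, and 44 were above LPS without overlap, beside 31.5%. The lower gene was *Cdkn1a* (-1.26 ± 0.33 on the log2 scale, limma, adjusted p = 0.00696). The median difference was 4.70 on the log2 scale for the mitosis genes, with a range of 3.48 to 5.41, and 2.47 for the replication genes, with a range of 0.60 to 4.13, beside 0.11 over all tested genes. *Ccna2* differed most, by 42.6-fold (78.8-fold without LPS 72 h replicate 3), and *Pcna* least among those called, by 1.52-fold, a call lost relative to the median gene and without RANKL 72 h replicate 2 or LPS 72 h replicate 3. *Ccnd2*, *Ccnd3* and *E2f1* were not called, with intervals of -0.83 to 0.91, -0.21 to 1.16 and 0.11 to 0.77, the last above 0 but with a fold change below 1.5. At 4 h 29 genes were higher with RANKL and 3 were lower, beside 42.5% and 9.31% of all tested genes, and the 3 were *Ccnd2*, *Ccne1* and *Cdkn1a*. Relative to the median gene of each sample, 5 genes in place of 29 were higher with RANKL at 4 h, beside 14.7% of all tested genes.

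Within a stimulus, RANKL 72 h had 29 genes higher than RANKL 4 h and 2 lower, beside 20.1% and 8.24% of all tested genes, and 17 were higher without RANKL 72 h replicate 2. With the adjusted p these were 20 and 2, beside 16.4% and 6.83%. LPS 72 h had 36 genes lower than LPS 4 h and 2 higher, beside 14.3% and 45.0% of all tested genes, and as many with the adjusted p, beside 13.9% and 44.2%. All 21 mitosis genes and 8 of 14 replication genes were among the 36, and the 2 higher genes were *E2f1* and *Cdkn1b*, neither of which was called relative to the median gene of each sample. *Mki67*, which at 4 h of LPS had stayed within the control range, fell 9.15-fold between 4 h and 72 h (limma, adjusted p = 4.85e-06), and *Nusap1* 14.2-fold, the largest of the 48 (26.4-fold without LPS 72 h replicate 3).

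Genes of the same pathways outside the 48, listed by name, were read for comparison. The shares of all tested genes called, against which the counts stand, were 20.2% higher and 9.04% lower in RANKL 72 h, 8.75% and 41.0% in LPS 4 h and 14.9% and 16.1% in LPS 72 h. Of 36 other replication genes, 13 were higher and 0 lower in RANKL 72 h, 30 lower in LPS 4 h, and 22 lower and 2 higher in LPS 72 h. The 3 of highest mean level were *Rfc2*, part of the clamp loader, the single-strand binding protein *Rpa1* and the histone mRNA binding protein *Slbp*. *Rpa1* rose by 0.59 on the log2 scale in RANKL 72 h and fell by 1.32 in LPS 4 h, and *Rfc2* fell by 1.35 in LPS 4 h and by 0.62 in LPS 72 h, while *Slbp* was not called against control. The 2 called higher in LPS 72 h, named after their values were seen, were the origin recognition subunits *Orc5* (0.85) and *Orc2* (0.59). Of 40 other mitosis genes, 28 were higher in RANKL 72 h, 30 lower and 1 higher in LPS 4 h, and 39 lower in LPS 72 h. The 3 of highest mean level were *Bub3*, the CDK subunit *Cks1b* and securin, *Pttg1*. *Bub3*, of the spindle checkpoint, was the one not called in LPS 72 h, with a log2 change of -0.56. *Cks1b* rose by 0.67 in RANKL 72 h and fell by 2.26 in LPS 72 h. *Pttg1* was the one that rose in LPS 4 h, by 0.94 on the log2 scale, and it fell by 1.75 in LPS 72 h. Neither list had a gene called in RANKL 4 h.

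Of 29 other G1 and S phase regulators tested, 8 were higher and 3 lower in RANKL 72 h and 10 lower and 3 higher in LPS 72 h, beside 20.2%, 9.04%, 16.1% and 14.9% of all tested genes in that order. The 3 of highest mean level were the growth arrest gene *Gadd45b*, the partner of D-type cyclins *Cdk4* and the p53 target *Ccng1*. *Gadd45b* fell by 1.83 on the log2 scale in RANKL 72 h and rose by 2.47 in LPS 4 h. *Cdk4* and *Ccng1* fell by 1.02 and by 1.07 in LPS 4 h and were not called in either 72 h group. Among genes singled out after their values were seen, the inhibitors *Cdkn2a* and *Cdkn2b* rose by 2.97 and 2.54 in RANKL 72 h from low levels (means over all samples of 0.820 and 1.04 FPKM). The E2F members *E2f2*, *E2f7* and *E2f8* had log2 changes of -3.31, -2.68 and -3.81 in LPS 72 h.

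Marker levels of other cells moved with the groups too. Granulocyte precursor markers summed to 7968 to 24420 FPKM in control, 1850 to 7454 in RANKL 72 h and 151.6 to 1820 in LPS 72 h, and 6 and 10 of the 10 were lower at 72 h. Stromal markers summed to 245 to 491.9 FPKM in control and 600.4 to 2663 in RANKL 72 h, and 14 of 18 were higher there. Their highest sum was in RANKL 72 h replicate 1, which had the lowest replication and mitosis levels of its group. Without that sample 29 of the 48 genes were called higher in RANKL 72 h. Basophil and mast cell markers were lower at 72 h for 8 of 8 genes with either stimulus. Of 7 B cell markers tested, 4 were lower in RANKL 72 h and 5 in LPS 72 h, of 3 erythroid markers tested all 3 were lower in both, and of 8 T and NK cell markers 1 was lower in each and 1 was higher in RANKL 72 h. The part of these cells in the results was not tested.

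The calls in RANKL 72 h rested on single samples more than those in LPS 72 h. Without control replicate 1, 14 genes in place of 26 were higher in RANKL 72 h, and without RANKL 72 h replicate 2, 16 were. Over all 17 alternatives *Mcm6*, *Rrm1*, *Bub1*, *Bub1b*, *Cenpe*, *Kif20a*, *Cdkn1b* and *Cdkn2c* were called higher and *Cdkn1a* lower in every one, and in LPS 72 h 42 of the 45 lower genes were. Exons of 16 of the 48 genes, among them *Ccnd1*, *Ccnd2*, *Ccnd3*, *Cdkn1a*, *Top2a*, *Ccna2* and *Cdk2*, share bases with another annotated gene, and whether strand was used in counting is not given in the sources used here, so their reads cannot be told apart from those of that gene there.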

How the data were processed

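RNA-seq of mouse BMDMs was analyzed in 15 samples, 5 groups of 3. The authors deposited FPKM values per gene and sample, made with StringTie and Ballgown per their methods. The submitters' processing notes name the builds GRCm38.p4 and mm10. The aligner and strand setting are not given in the sources used here. Genes from an incomplete last entry on were not analyzed here. A fragment is worth a fixed FPKM step in each gene and sample, from which fragments were recovered for 14485 of 14485 genes above 0 in at least 3 samples, with 100% of values within 0.001 of a whole number, and limma voom was run on them.

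After adding 0.1 to FPKM and taking log2, limma 3.58.1 in R 4.3.3 (lmFit, eBayes with trend) fitted the 5 groups together, on the 11743 genes whose mean FPKM reached 0.1. Calls used a fold above 1.5 or below 0.66 and p under 0.05, the thresholds of the study, where edgeR was used by the authors. The scripts were tested on simulated data. The 48 genes and all lists were chosen with earlier results of these data known. By rule, values in every sample were given for the member of highest mean in each role, the largest and smallest changes at 72 h and 14 set genes, and log2 changes for the 3 genes of highest mean FPKM in each other pathway list. Replicate numbers come from the labels. Deviations of samples with the same number correlated at 0.103 to 0.842 across genes in every pair of groups without LPS 72 h, which was taken as pairing, and not above 0.1 throughout in any pair with it. The main fit had no replicate term, so the p-values, SE and intervals given leave this pairing out. Alternatives were the pseudocount, filter, scaling, groups in the fit, trend, adjustment, a replicate block and leaving out each sample. Positions are from GENCODE M21 on GRCm38, promoter windows from RefSeq (GRCm38.p6). Python 3.11.15, pandas 2.3.3 and matplotlib 3.10.9 were used otherwise. Depth was 18306377 to 20330303 fragments, a small counting error except for genes such as *Cenpf* in LPS 72 h.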

Additional observations from a re-analysis of the deposited data

Results flagged for a closer look

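The counts of genes higher and lower at 72 h than at 4 h, by limma within each stimulus, ran opposite ways with RANKL and with LPS. The difference between the stimuli in this time course was not itself tested. With RANKL, 20 of the 48 genes were higher at 72 h with an adjusted p under 0.05 and 2 were lower, *Pcna* and *Cdkn1a*. The shares of all tested genes were 16.4% and 6.83%. With LPS, 36 were lower and 2 were higher, *E2f1* and *Cdkn1b*, beside 13.9% and 44.2% of all tested genes. *Cdkn1b* was thus higher at 72 h under both stimuli, 2.86-fold with RANKL and 1.71-fold with LPS, and *Cdkn1a* was lower under both, 2.31-fold and 2.04-fold, whereas *Cdkn2c* rose 2.42-fold with RANKL between the times and was not called with LPS. Without LPS 4 h replicate 2 or replicate 3, 1 gene in place of 2 was higher at 72 h of LPS, and relative to the median gene of each sample 0 were. No test for a sample far from its group was run, since each group held 3.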

How the results depend on the processing

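Depth limited only low genes in LPS 72 h. Under these alternatives no called change turned its direction. Calls relative to the median gene of each sample fell to 10 higher in RANKL 72 h (26 as reported), 8 lower in LPS 4 h (32), 16 higher in RANKL 72 h against RANKL 4 h (29), 0 higher in LPS 72 h against LPS 4 h (2) and 5 higher in RANKL 4 h against LPS 4 h (29). With FPKM rescaled to equal sums, 2 genes were lower in RANKL 72 h (4) and 1 in RANKL 72 h against RANKL 4 h (2). With the adjusted p, 0 genes were lower in RANKL 4 h (1) and 2 in RANKL 72 h (4). Other alternatives kept these counts within 1.5 times.

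Leaving out 1 sample at a time gave 14 to 31 genes higher and 2 to 3 lower in RANKL 72 h. The 14 came without control replicate 1, 16 without RANKL 72 h replicate 2, and 2 lower without control replicate 3 or RANKL 72 h replicate 1 or 3. It gave 0 to 1 lower and 0 to 0 higher in RANKL 4 h, 25 to 30 lower and 1 to 3 higher in LPS 4 h (1 without LPS 4 h replicate 1), and 43 to 45 lower and 0 to 0 higher in LPS 72 h. RANKL 72 h against RANKL 4 h gave 17 to 32 higher (17 without RANKL 72 h replicate 2) and 1 to 2 lower (1 without RANKL 4 h replicate 3 or RANKL 72 h replicate 1). LPS 72 h against LPS 4 h gave 34 to 39 lower and 1 to 3 higher, RANKL against LPS 43 to 44 higher and 1 to 1 lower at 72 h, and 22 to 28 higher and 2 to 3 lower at 4 h.

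A replicate block in the fit gave 29 genes higher and 4 lower in RANKL 72 h, 35 lower and 3 higher in LPS 4 h, 33 higher and 2 lower in RANKL 72 h against RANKL 4 h, and 32 higher and 3 lower in RANKL 4 h against LPS 4 h. No count of calls moved by over 1.5 times. The numbers did not pair the LPS 72 h samples, where the block left 45 genes lower.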
